A study of Mus musculus with 32 samples.

Results

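The Runx transcription factors Runx1, Runx2 and Runx3 and their shared partner Cbfb were followed by RNA sequencing through 8 sorted fractions of mouse bone marrow at 2 ages. The genes were chosen by symbol and are 4 of the 24421 genes in the count table. All 4 passed the filter on low counts that left 14154 genes for testing. The cells came from female C57BL/6 mice aged 10 weeks (Young) or 20 months (Aged), with no genetic change or treatment named, and each of the 16 groups had 2 libraries. All fractions were negative for lineage markers. Hematopoietic stem cells (HSCs) and multipotent progenitors MPP1 to MPP4 were Sca-1+ and c-kit+, and CD34, CD150, CD48 and Flt3 told them apart: HSCs lacked CD34, MPP1 gained it, MPP2 gained CD48, MPP3 lost CD150 and MPP4 gained Flt3. Of the Sca-1- c-kit+ cells, granulocyte-macrophage progenitors (GMPs) carried Fc gamma receptors and CD34, and megakaryocyte-erythrocyte progenitors (MEPs) carried neither. Common lymphoid progenitors (CLPs) were low for Sca-1 and c-kit and positive for the IL-7 receptor. The sources used here differ on whether the duplicates of a group came from separate mice or from 1 pool of marrow, so each error and p-value below covers the spread between duplicate libraries, which may be technical.

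Runx proteins bind DNA through their runt domain. Cbfb does not touch DNA itself but binds that domain and strengthens its hold on DNA, so all Runx proteins draw on the same partner. Runx1 is needed for blood stem cells to form in the embryo and later in the making of platelets and lymphocytes, Runx2 is best known as the regulator that makes osteoblasts, the cells that form bone, and Runx3 is known for its role in cytotoxic T cells and natural killer cells. RUNX1 and CBFB are among the genes most often altered in human acute leukemia.

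The Runx genes shared a stretch of sequence near their starts, which is shown here because it is common to the family and was not used to choose it. The windows searched were RefSeq promoters of GRCm38.p6, from 250 bases before a start to 50 bases from it. Each line gives the letters around the stretch, 5' to 3' on the gene's strand, with every ACCACA in capitals. ACCACA is the reverse complement of TGTGGT, the core of the Runx binding site.
Runx1, distal start, chr16:92826026-92826052, minus strand: taaacaACCACAgaACCACAagttggg
Runx2, the start listed, chr17:44814584-44814610, minus strand: caaacaACCACAgaACCACAagtgcgg
Runx3, distal start, chr4:135120505-135120531, plus strand: ccctcaACCACAgaACCACAaggccag
Counted from 1 at the first transcribed base, the longest letters shared by a window of each Runx gene, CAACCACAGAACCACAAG, lay at 27 to 44 in Runx1, at 22 to 39 in Runx2 and at -136 to -119 in Runx3. On either strand these letters, which were found in these windows, stood in 4 of 32851 promoter windows (0.0122%): the 3 above and that of Gm16225, which overlaps the Runx3 window on the other strand. TGTGGT on either strand was far more common and stood in 5506 windows (16.8%), with 2 or more copies in 595 (1.81%) and 3 or more in 60 (0.183%). The distal window of Runx1 held 2 copies, that of Runx2 held 3 and the distal window of Runx3 held 2. The windows of the proximal Runx1 start, the proximal Runx3 start and Cbfb held 0. These are matches of letters, and the RNA data do not show which start was used or what bound there.

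The libraries held 11237384 to 17723245 counts, and levels are given as CPM, each count scaled by its library's total. Of the sort antigens, mean Flt3 was 30.4 CPM in Young HSCs and 1127 CPM in Young MPP4, Il7r was 150.9 CPM in Young CLPs and 0 in Young GMPs, Fcgr3 was 391 CPM in Young GMPs, and Cd34 was 0.336 CPM in Young MEPs. With age, 6 of the 9 sort antigen genes were lower in MEPs, where 11.7% of all tested genes were lower. Among the 6 were Cd48 (50.7 to 13.6 CPM) and Il7r (12.8 to 0.295 CPM). Fold changes are from a fit of all 32 libraries with edgeR, which scales each library by a TMM factor besides its total. These factors were 0.807 to 0.849 in GMPs and 1.03 to 1.07 in MPP3, so that from MPP3 to GMPs the fit added 0.39 (Young) and 0.29 (Aged) on the log2 scale to the change in CPM. Between the ages of a fraction the factors added -0.05 (GMPs) to 0.09 (MPP4) on the log2 scale to the change in CPM.

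With age, Runx2 changed in 7 of 8 fractions, Runx3 in 3, Runx1 in 2 and Cbfb in 2, at an adjusted p under 0.01 in edgeR's quasi-likelihood test. Of the 32 tests, 5 were higher and 9 lower in Aged cells. The 4 genes did not move as a unit: Runx1 and Runx2 were lower in MPPs while Cbfb was higher on average there, and in GMPs Runx2 and Runx3 were higher while Cbfb was lower. By fraction, and with the percent of all tested genes called in parentheses, 1 of the 4 was called in HSCs (5.40%), MPP1 (6.80%), MPP4 (16.6%) and CLPs (10.4%), 2 were called in MPP2 (7.81%) and MPP3 (13.9%), and 3 were called in GMPs (18.9%) and MEPs (20.8%). Where the ages are said below to overlap or not, 2 libraries are set against 2. How many of all tested genes did the same was not counted, so such a separation is a description and not a test. In sorted bulk samples, fewer cells of a type and less RNA per cell cannot be told apart.

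**Figure D1:**
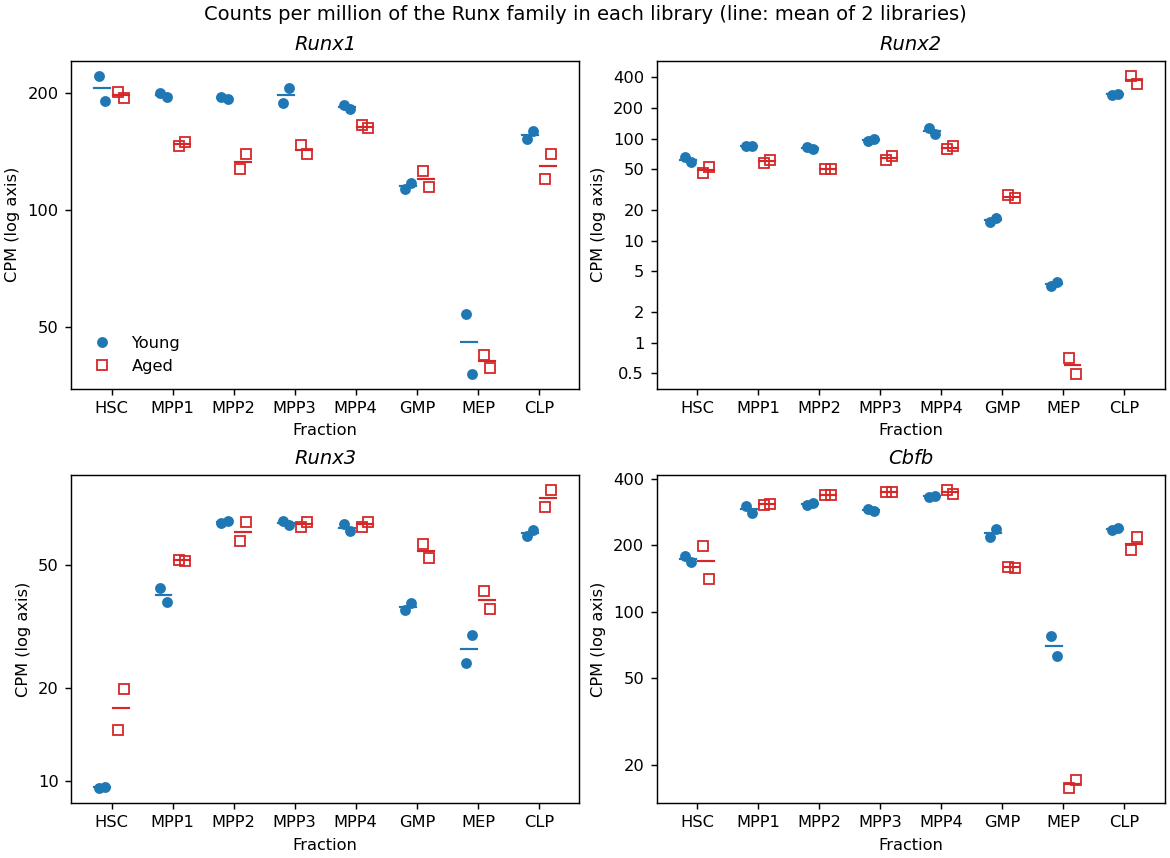
CPM (log axis) of each gene in each library by fraction, with filled circles for Young, open squares for Aged and a line at the mean of 2 libraries. Runx2 spans the widest range, from 0.603 CPM in Aged MEPs to 378 CPM in Aged CLPs, and Runx1 and Cbfb are lowest in MEPs at both ages.

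**Figure D2:**
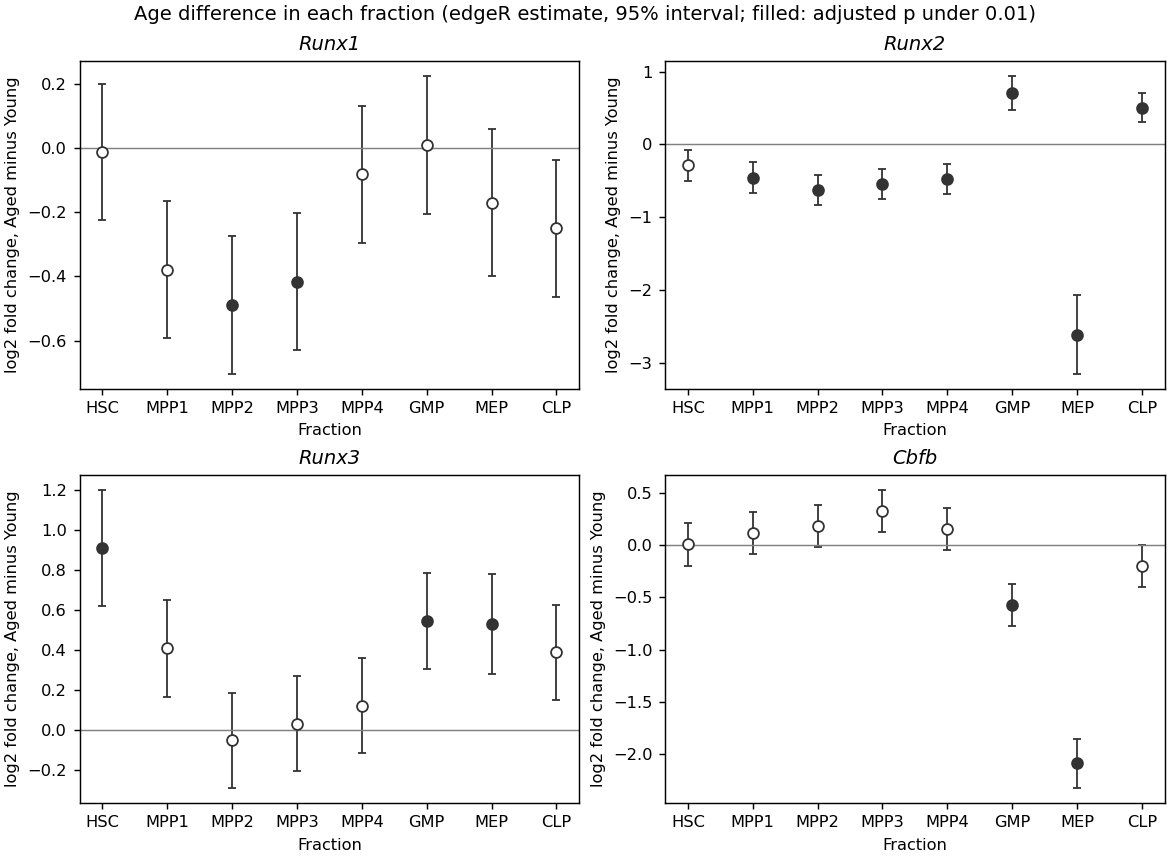
log2 fold change of Aged over Young in each fraction with its 95% interval, from edgeR, filled where the adjusted p was under 0.01. Runx2 lies below 0 in HSCs, all MPPs and MEPs and above 0 in GMPs and CLPs, and the Cbfb estimates in GMPs and MEPs lie below 0.

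Runx1 lies on chr16:92601466-92826149, minus strand (GRCm38, GENCODE M21). It was the most even of the 3 Runx genes across stem and multipotent cells and was lowest in MEPs. In HSCs it measured 221 and 189.9 CPM in Young libraries and 200.5 and 194 CPM in Aged ones. The ages overlapped there, and the difference of -0.01 ± 0.10 (log2, SE) had a 95% interval from -0.23 to 0.20.

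In MPPs the Aged libraries lay below the Young ones in all 4 fractions. Runx1 measured 199.97 and 195 CPM in Young and 146 and 149 CPM in Aged MPP1. It measured 195 and 192 CPM in Young and 127 and 139 CPM in Aged MPP2. The gap was of the same order in MPP3, with 189 and 205 CPM in Young and 147 and 139 CPM in Aged libraries, and smallest in MPP4, with 186 and 181 CPM against 165 and 162 CPM. Runx1 fell by 0.49 ± 0.10 (log2, SE) in Aged MPP2 (1.40-fold lower, edgeR adjusted p = 0.00259) and by 0.42 ± 0.10 in Aged MPP3 (1.33-fold lower, edgeR adjusted p = 0.00512). The differences of -0.38 in MPP1 (edgeR adjusted p = 0.0168) and -0.08 in MPP4 (edgeR adjusted p = 0.625) did not pass, and in MPP4 mean CPM alone gave -0.17. Averaged over MPP1 to MPP4, Runx1 fell by 0.34 ± 0.05 (edgeR adjusted p = 1.14e-05), in a contrast where 36.7% of all tested genes were called. This average held under every alternative tried, whereas the calls in MPP2 and MPP3 alone were lost when any 1 of the fraction's 4 libraries was left out and once GC content and gene length were offset in the fit (edgeR adjusted p = 0.0187 and 0.149).

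Past the MPPs, Runx1 passed the test for age in no fraction. In GMPs it measured 113 and 117 CPM in Young and 126 and 115 CPM in Aged libraries, which overlapped, with a 95% interval of the log2 difference from -0.20 to 0.23. In MEPs it measured 53.9 and 37.9 CPM in Young and 42.3 and 39.3 CPM in Aged libraries. The Aged pair lay between the Young pair, and without Young replicate 2 the fit gave -0.45 (edgeR adjusted p = 0.00134). In CLPs it measured 152 and 159.6 CPM in Young and 120.3 and 139 CPM in Aged libraries, and the difference of -0.25 ± 0.10 did not pass (edgeR adjusted p = 0.0995).

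Ordered by mean CPM, Runx1 went from HSCs (205 CPM) through MPP1, MPP3, MPP2, MPP4, CLPs (156 CPM) and GMPs (115 CPM) to MEPs (45.9 CPM) in Young cells. Of the 7 pairs of neighbors, only GMPs and MEPs passed the test, with -1.56 ± 0.11 on the log2 scale (MEPs over GMPs). Once GC content and gene length were offset, GMPs stood above CLPs by 0.40 (edgeR adjusted p = 0.00143), so the order of that pair depends on this choice. In Aged cells the order was HSCs (197 CPM), MPP4, MPP1, MPP3, MPP2, CLPs (129.7 CPM), GMPs (120.1 CPM) and MEPs (40.8 CPM), and again only the last pair passed. HSCs held 4.47 times the level of MEPs in Young and 4.83 times in Aged cells.

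Runx2 lies on chr17:44495987-44814797, minus strand. It is the family member that marked the fractions most, highest in CLPs and nearly absent from MEPs. In MPPs it was lower with age, as Runx1 was, but by more and in every fraction. It measured 84.1 and 84.4 CPM in Young and 57.8 and 61.5 CPM in Aged MPP1, and 82.1 and 79.0 CPM in Young and 49.996 and 50.8 CPM in Aged MPP2. It measured 95.2 and 98.2 CPM in Young and 61.4 and 67.2 CPM in Aged MPP3, and 128 and 112 CPM in Young and 78.1 and 84.5 CPM in Aged MPP4. All Aged libraries lay below all Young libraries of their fraction. In order from MPP1 to MPP4, Runx2 fell by 0.46, 0.62, 0.54 and 0.47, each ± 0.10 (log2, SE), with edgeR adjusted p between 0.000246 and 0.00358. The average over MPP1 to MPP4 fell by 0.52 ± 0.05 (1.44-fold lower, edgeR adjusted p = 2.24e-08). The average and the call in MPP2 held under every alternative. Once GC content and gene length were offset, the differences in MPP1, MPP3 and MPP4 were -0.40, -0.25 and -0.32 and did not pass (edgeR adjusted p = 0.0118, 0.0749 and 0.0222). The MPP1 call was also lost when any 1 of its 4 libraries was left out, the MPP3 call without Aged MPP3 replicate 1 (edgeR adjusted p = 0.0128), and the MPP4 call without Young MPP4 replicate 1 or Aged MPP4 replicate 1 (edgeR adjusted p = 0.0292 and 0.0208).

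Markers of other cells differed between the ages in MPPs too. The 9 osteoblast and stromal markers summed to 96.9 CPM in both Young and 25.9 to 30.5 CPM in Aged MPP2, with Sp7 and Bglap at 0 at both ages. They summed to 110 to 111 CPM in Young MPP3 (8 of 9 with counts) and 8.96 to 9.004 CPM in Aged MPP3 (4 of 9, with Col1a1, Sp7, Bglap, Ibsp and Lepr at 0), where 4 of the 7 tested were lower (5.79% of all tested genes were). In MPP4 they summed to 20.1 to 27.3 CPM in Young (8 of 9 with counts) and 6.38 to 7.72 CPM in Aged libraries (5 of 9), and in MPP1, where Runx2 was also lower, to 35.7 to 38.9 CPM in Young and 33.2 to 34.3 CPM in Aged libraries. The 6 neutrophil markers, all with counts, summed to 706 to 747 CPM in Young and 261 to 268 CPM in Aged MPP2, and to 1147 to 1153 CPM in Young and 180.4 to 245 CPM in Aged MPP3. The 7 macrophage markers, all with counts, summed to 50.3 to 57.5 CPM in Young and 10.2 to 11.5 CPM in Aged MPP4. The part of such cells in the Runx1 and Runx2 differences in MPPs was not tested.

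In HSCs Runx2 measured 66.0 and 58.5 CPM in Young and 45.7 and 52.7 CPM in Aged libraries. The Aged pair lay below the Young pair, but the difference of -0.29 ± 0.10 did not pass (edgeR adjusted p = 0.0743), and neither did its difference from the MPP average (0.24 ± 0.11, edgeR adjusted p = 0.226).

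In GMPs and CLPs the direction was opposite to that in MPPs. Runx2 measured 15.2 and 16.6 CPM in Young and 28.1 and 25.9 CPM in Aged GMPs, and 269 and 272 CPM in Young and 410.2 and 346 CPM in Aged CLPs, with no overlap of the ages. It rose by 0.71 ± 0.11 in Aged GMPs (1.63-fold, edgeR adjusted p = 6.09e-05) and by 0.50 ± 0.10 in Aged CLPs (1.42-fold, edgeR adjusted p = 7.49e-04). Set against the MPP average, the age difference was higher by 1.23 ± 0.12 in GMPs (edgeR adjusted p = 1.20e-07) and by 1.03 ± 0.11 in CLPs (edgeR adjusted p = 3.12e-07), and both of these contrasts held under every alternative. Of all tested genes, 26.6% differed from the MPP average in GMPs and 22.6% in CLPs. The call in GMPs itself was lost once GC content and gene length were offset (0.40, edgeR adjusted p = 0.0147) and when only the 4 GMP libraries were fitted (0.70, edgeR adjusted p = 0.0114). The call in CLPs itself was lost when only the 4 CLP libraries were fitted (edgeR adjusted p = 0.0475), without Young CLP replicate 1 (edgeR adjusted p = 0.0140) and without Aged CLP replicate 1 (edgeR adjusted p = 0.0369).

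Markers of other cells moved in the same fractions. In CLPs all 8 markers of plasmacytoid dendritic cells, a cell type known for Runx2, had counts at both ages and summed to 3878 to 3939 CPM in Young and 5825 to 7727 CPM in Aged libraries, while the 6 markers of basophils and mast cells went from 1711 to 1751 CPM in Young to 8.28 to 15.7 CPM in Aged libraries, with Prss34 at 0. The 7 B cell markers, all with counts at both ages, went from 2071 to 2115 CPM to 897 to 934 CPM. In GMPs the 6 neutrophil markers, all with counts, summed to 223 to 224 CPM in Young and 75.7 to 101 CPM in Aged libraries. The markers of plasmacytoid dendritic cells (5 of 8 with counts at each age) summed there to 79.3 to 84.9 CPM in Young and 115 to 116 CPM in Aged libraries. Klk1 was at 0 at both ages, Siglech and Ccr9 only in Young and Ly6d and Cox6a2 only in Aged GMPs. Of the 8, 1 was called higher, 1 lower and 6 were not called (9.93% of all tested genes were higher and 8.97% lower). In fractions with lower Runx2 in Aged cells, the sum of the plasmacytoid dendritic cell markers went either way. It was higher in Aged MEPs (101.5 to 102.4 against 80.6 to 90.8 CPM), MPP4 (265 to 276 against 242 to 257 CPM) and MPP1 (177.5 to 180.4 against 170.2 to 170.3 CPM). The sum was lower in Aged MPP3 (173 to 175 against 192 to 194 CPM) and overlapped in MPP2. The part of these cells in the Runx2 differences was not tested.

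In MEPs Runx2 was low. The Young libraries held 58 and 57 reads (3.55 and 3.92 CPM) and the Aged ones 8 and 6 reads (0.712 and 0.495 CPM), without overlap. Summed over both Aged libraries, the 14 reads gave 0.599 CPM with an exact 95% Poisson interval of 0.328 to 1.01 CPM, which covers counting error only. Runx2 fell by 2.61 ± 0.26 on the log2 scale (6.13-fold lower, edgeR adjusted p = 1.19e-07) and by 2.09 ± 0.27 against the MPP average (edgeR adjusted p = 4.19e-06), a contrast in which 24.8% of genes were called. When only the 4 MEP libraries were fitted, the first difference was -2.63 with edgeR adjusted p = 0.0156.

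Markers of other cells also differed between the ages in MEPs. The 7 B cell markers all had counts in Young MEPs and summed to 136 to 143 CPM, and in Aged MEPs 2 of 7 had counts, the sum was 0.412 to 1.16 CPM and Cd79a, Ms4a1, Pax5 and Ebf1 were among those at 0. The 9 osteoblast and stromal markers summed to 10.4 to 14.7 CPM in Young (3 of 9 with counts) and 0.825 to 2.14 CPM in Aged MEPs (1 of 9, with Col1a1, Sp7, Bglap, Ibsp, Alpl, Cxcl12, Lepr and Postn at 0). The 8 erythroid and megakaryocyte markers all had counts and summed to 1905 to 1952 CPM in Young and 2072 to 2092 CPM in Aged MEPs. The part of those other cells in the Runx2 difference in MEPs, and in that of Cbfb below, was not tested.

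Across fractions, mean Runx2 went in Young cells from CLPs (271 CPM) through MPP4, MPP3, MPP1, MPP2 (80.5 CPM), HSCs (62.3 CPM) and GMPs (15.9 CPM) to MEPs (3.73 CPM), and the order was the same in Aged cells. Once GC content and gene length were offset, the difference of GMPs from HSCs in Aged cells turned to 0.15 (edgeR adjusted p = 0.230). The level in CLPs was 72.5 times that in MEPs in Young and 626 times in Aged cells. MPP3 against MPP4, MPP1 against MPP3 and MPP2 against MPP1 did not pass at either age, nor did HSCs against MPP2 in Aged cells. MPP3 against MPP4 came closest, with -0.31 ± 0.10 in Young (edgeR adjusted p = 0.0477) and -0.38 ± 0.10 in Aged cells (edgeR adjusted p = 0.0184). The gene Supt3, which encodes a subunit of a histone acetyltransferase complex, runs through Runx2 on the other strand without shared exon bases. It measured 11.3 to 46.9 CPM over the libraries and was not called for age in any fraction, with -0.01 to 0.31 on the log2 scale and edgeR adjusted p of at least 0.0556. The antisense gene Runx2os1 shares 519 bases, 5.87% of the Runx2 exon bases, and without stated use of strand its reads could not be told from those of Runx2.

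Runx3 lies on chr4:135120652-135177990, plus strand. It was the member with its lowest level in HSCs, and its calls with age, all higher, fell in HSCs, GMPs and MEPs. In HSCs it measured 9.51 and 9.56 CPM in Young and 14.7 and 19.8 CPM in Aged libraries (107 and 136 reads against 173 and 288 reads). The ages did not overlap, and Runx3 rose by 0.91 ± 0.14 on the log2 scale (1.88-fold, edgeR adjusted p = 1.49e-04). The age difference in HSCs was higher than the MPP average by 0.78 ± 0.15 (edgeR adjusted p = 0.00260), in a contrast where 3.01% of all genes were called. When only the 4 HSC libraries were fitted, Runx3 was 0.87 higher with edgeR adjusted p = 0.0721, and the contrast with MPPs was lost without Young HSC replicate 1 or 2 or Aged HSC replicate 2 (edgeR adjusted p = 0.0196, 0.0283 and 0.0419).

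Of the 8 markers of natural killer and innate lymphoid cells, 3 had counts in Young HSCs and summed to 28.6 to 32.5 CPM, and 5 had counts in Aged HSCs and summed to 88.5 to 94.3 CPM. Klrb1c, which went from 23.0 to 74.3 CPM, and Nkg7, which went from 7.50 to 16.3 CPM, made up nearly all of this, and Ncr1, Gzma and Prf1 were at 0 at both ages. Of the 7 T cell markers, Cd3e and Cd3d were at 0 in HSCs at both ages, and their sum was 22.3 CPM in both Young and 11.7 to 12.5 CPM in Aged libraries. The neutrophil markers, all 6 with counts, summed to 61.0 to 66.0 CPM in Young and 297 to 313 CPM in Aged HSCs. The part of such cells in the Runx3 difference was not tested.

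In MPPs Runx3 passed the test for age in no fraction. It measured 42.1 and 37.9 CPM in Young and 51.7 and 51.6 CPM in Aged MPP1, a difference of 0.41 ± 0.12 that did not pass (edgeR adjusted p = 0.0235). From MPP2 on the ages overlapped, with 68.4 and 69.2 CPM against 59.5 and 68.5 CPM in MPP2, 69.0 and 67.4 CPM against 66.1 and 68.9 CPM in MPP3, and 67.5 and 64.1 CPM against 66.1 and 68.8 CPM in MPP4. The 95% intervals of the log2 differences ran, in the same order, from -0.29 to 0.18, from -0.21 to 0.27 and from -0.12 to 0.36.

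In the 3 fractions past the MPPs the Aged libraries lay above the Young ones. Runx3 measured 35.7 and 37.5 CPM in Young and 58.3 and 52.7 CPM in Aged GMPs, and 24.0 and 29.6 CPM in Young and 41.2 and 35.9 CPM in Aged MEPs. It rose by 0.55 ± 0.12 in GMPs (1.46-fold, edgeR adjusted p = 0.00119) and by 0.53 ± 0.12 in MEPs (1.44-fold, edgeR adjusted p = 0.00193). In GMPs the 8 markers of natural killer and innate lymphoid cells summed to 577 to 608 CPM in Young and 846 to 898 CPM in Aged libraries. Only 3 had counts in Young and 5 in Aged GMPs, with Ncr1, Gzma and Eomes at 0 at both ages. Of the 8, 1 was called higher and 0 lower (9.93% and 8.97% of all tested genes), with a median of 0.16 on the log2 scale. In MEPs these markers summed to 33.1 to 34.5 CPM in Young (7 with counts) and 20.9 to 27.8 CPM in Aged libraries (8 with counts). There 1 was called higher and 1 lower (9.08% and 11.7% of all tested genes). The median in MEPs was 1.43 on the log2 scale, so the sum and the median went opposite ways. The part of such cells in these Runx3 differences was not tested. The Young MEP libraries, where Runx2 and Cbfb were higher, were thus the lower ones for Runx3. In CLPs it measured 62.0 and 64.6 CPM in Young and 76.9 and 87.1 CPM in Aged libraries, and the difference of 0.39 ± 0.11 did not pass (edgeR adjusted p = 0.0199). The GMP call was lost once GC content and gene length were offset (0.26, edgeR adjusted p = 0.0566) and without Young GMP replicate 1 or Aged GMP replicate 1 (edgeR adjusted p = 0.0123 and 0.0202). The MEP call was lost without Young MEP replicate 1 or Aged MEP replicate 1 (edgeR adjusted p = 0.0601 and 0.0470) and when only the 4 MEP libraries were fitted (edgeR adjusted p = 0.0547).

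By mean CPM, Runx3 in Young cells went from MPP2 (68.8 CPM) through MPP3, MPP4, CLPs (63.3 CPM), MPP1 (40.0 CPM), GMPs (36.6 CPM) and MEPs (26.8 CPM) to HSCs (9.54 CPM). The tests between neighbors among the first 4 did not pass. Neither did GMPs against MPP1, where the fit put GMPs higher (0.32 ± 0.12, edgeR adjusted p = 0.0192) although their CPM was lower. MPP1 lay below CLPs, MEPs below GMPs and HSCs below MEPs. In Aged cells CLPs stood first (82.0 CPM), above MPP3 (edgeR adjusted p = 0.00445), and HSCs stood last (17.2 CPM).

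Cbfb lies on chr8:105170674-105217989, plus strand. The gene of the shared partner was highest in MPPs and moved with age mainly in GMPs and MEPs. In HSCs it measured 179.7 and 167 CPM in Young and 199 and 140.0 CPM in Aged libraries, so the Aged pair spanned the Young pair and the 95% interval of the log2 difference ran from -0.20 to 0.21. In MPPs every Aged library lay above every Young one of its fraction, by a small margin. Cbfb measured 302 and 282 CPM in Young and 305 and 309.7 CPM in Aged MPP1, and 307 and 312 CPM in Young and 340.0 and 339 CPM in Aged MPP2. The gap was widest in MPP3, with 293 and 286 CPM in Young and 350.3 and 351 CPM in Aged libraries, and it was 333 and 337 CPM against 358 and 342 CPM in MPP4. No single fraction passed, with differences from 0.12 in MPP1 to 0.32 in MPP3 (edgeR adjusted p = 0.0188 in MPP3). In MPP4 the fit gave 0.15 and mean CPM alone 0.064. The average over MPP1 to MPP4 rose by 0.19 ± 0.05 (1.14-fold, edgeR adjusted p = 0.00224), which was 0.16 with edgeR adjusted p = 0.0117 without a filter on low counts.

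In GMPs Cbfb measured 219.5 and 237 CPM in Young and 159.9 and 158 CPM in Aged libraries, without overlap. It fell by 0.58 ± 0.10 on the log2 scale (1.49-fold lower, edgeR adjusted p = 1.49e-04). In MEPs it measured 77.1 and 62.8 CPM in Young and 15.8 and 17.1 CPM in Aged libraries (1261 and 914 reads against 177 and 207 reads). It fell there by 2.09 ± 0.11 (4.25-fold lower, edgeR adjusted p = 9.21e-12), and ranked 28 of 14154 genes by p for age in MEPs. Against the MPP average the age difference was -0.77 ± 0.11 in GMPs (edgeR adjusted p = 1.10e-05) and -2.28 ± 0.12 in MEPs (edgeR adjusted p = 1.10e-11). These 4 results held under every alternative tried. The sums of B cell and stromal markers given above for MEPs moved the same way. In CLPs Cbfb measured 235 and 240.0 CPM in Young and 190.5 and 218 CPM in Aged libraries, a difference of -0.20 ± 0.10 that did not pass (edgeR adjusted p = 0.159) although it differed from the MPP average (-0.40 ± 0.11, edgeR adjusted p = 0.00712). That contrast was lost in 16 of 20 fits that left out 1 library, in which edgeR adjusted p ran from 0.00869 to 0.0775.

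By mean CPM, Cbfb went in Young cells from MPP4 (335 CPM) through MPP2, MPP1, MPP3, CLPs (237 CPM), GMPs (228 CPM) and HSCs (174 CPM) to MEPs (70.0 CPM). Of the neighbors, only HSCs against GMPs and MEPs against HSCs passed. Between CLPs and GMPs the fit gave 0.18 ± 0.10 (GMPs over CLPs, edgeR adjusted p = 0.119), opposite to the order by CPM. In Aged cells MPP3 (351 CPM) and MPP4 (350.0 CPM) led. CLPs (204 CPM) lay below MPP1, and HSCs (169.7 CPM) below CLPs although the CPM of their libraries overlapped. GMPs (159 CPM) against HSCs did not pass, and there the fit put GMPs higher (0.24 ± 0.10, edgeR adjusted p = 0.0370). MEPs (16.4 CPM) were lowest, 21.4 times below MPP3. The corresponding ratio of highest to lowest in Young cells was 4.78.

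The study sorted the fractions so that steps of differentiation could be compared, and the family members took different steps. In Young cells 16 of 28 steps of a member passed, 8 up and 8 down, and in Aged cells 14 of 28 passed, 6 up and 8 down. From HSCs to MPP1, where 14.8% of all genes were called in Young and 22.9% in Aged cells, Runx3 was higher by 2.04 ± 0.13 (4.11-fold) in Young and 1.54 ± 0.12 (2.90-fold) in Aged cells on the log2 scale. Cbfb was higher by 0.72 ± 0.10 and 0.83 ± 0.10 at the same step, and Runx2 by 0.41 ± 0.10 in Young cells (edgeR adjusted p = 0.00426), while its Aged difference of 0.24 ± 0.10 did not pass (edgeR adjusted p = 0.0698). Runx1 did not pass at this step in Young cells (-0.08 ± 0.10) and fell by 0.45 ± 0.10 in Aged cells (edgeR adjusted p = 0.00186).

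From MPP1 onward Runx3 was higher again in Young MPP2, MPP3 and MPP4, by 0.82, 0.83 and 0.78, each ± 0.12, where 6.82%, 5.49% and 12.9% of all genes were called. In Aged cells it was higher in MPP3 by 0.45 (8.25% of genes called) and in MPP4 by 0.50 (19.5%) and did not pass in MPP2 (0.36, edgeR adjusted p = 0.0427, where 5.55% of genes were called). Runx2 was higher in MPP4 than in MPP1 by 0.57 in Young and 0.56 in Aged cells, each ± 0.10. Runx1 and Cbfb passed at none of these steps.

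All 4 members were lower in MEPs than in MPP2 at both ages, in contrasts where 64.0% (Young) and 60.5% (Aged) of all genes were called. Runx2 fell by 4.26 ± 0.13 in Young and by 6.25 ± 0.19 in Aged cells on the log2 scale. Cbfb fell by 1.97 ± 0.10 and by 4.25 ± 0.12, Runx1 fell by 1.90 ± 0.11 and by 1.58 ± 0.11, and Runx3 fell by 1.19 ± 0.12 and by 0.61 ± 0.12. Once GC content and gene length were offset, the Aged difference of Runx3 was 0.24 (edgeR adjusted p = 0.0362), so its direction there depends on that choice.

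From MPP3 to GMPs, where 58.0% of genes were called in Young and 43.6% in Aged cells, Runx2 fell by 2.21 ± 0.11 and by 0.96 ± 0.10. Cbfb fell by 0.85 ± 0.10 in Aged cells and gave 0.05 ± 0.10 in Young cells (edgeR adjusted p = 0.698). Its Young CPM went from 289.5 to 228 at that step, before the 0.39 that the TMM factors add. Runx1 and Runx3 fell in Young cells by 0.39 and 0.51, but once GC content and gene length were offset both were higher in GMPs (0.47 and 0.34, edgeR adjusted p = 2.93e-04 and 0.00473), so that their direction at this step depends on that choice. From MPP4 to CLPs, where 41.8% and 40.5% of genes were called, Runx2 was higher by 1.33 ± 0.10 in Young and 2.30 ± 0.10 in Aged cells, and Cbfb fell by 0.34 ± 0.10 and by 0.70 ± 0.10.

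**Figure D3:**
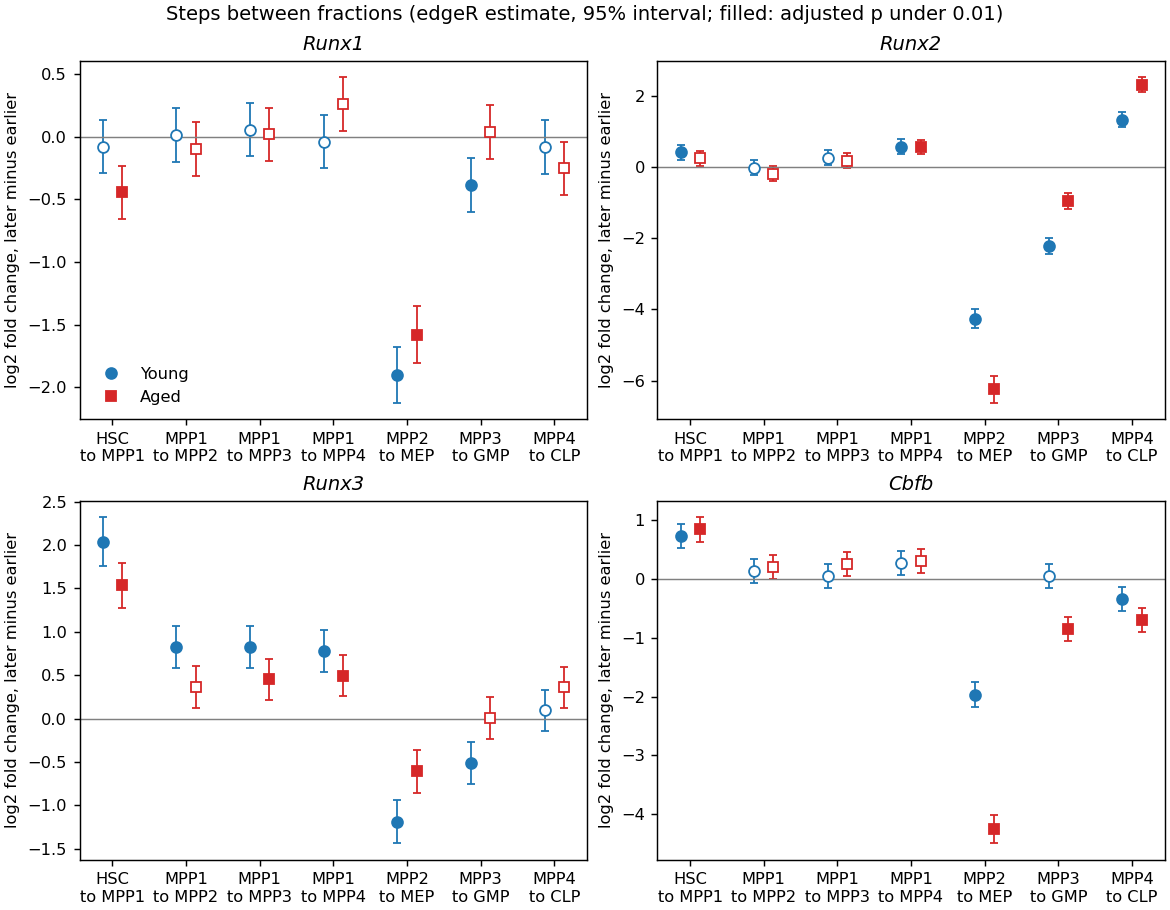
log2 fold change of the later over the earlier fraction with its 95% interval, from edgeR, for 7 steps in Young (circles) and Aged (squares) cells, filled where the adjusted p was under 0.01. All 4 members lie below 0 from MPP2 to MEPs at both ages, and Runx3 lies above 0 from HSCs to MPP1.

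To compare the members with each other, CPM were divided by the length of the merged exons in kilobases, 12.025 for Runx1, 8.837 for Runx2, 5.003 for Runx3 and 3.48 for Cbfb. On this scale Cbfb was the highest of the 4 in 15 of 16 groups, and in Aged MEPs Runx3 was (7.70 ± 0.754 against 4.72 ± 0.268 CPM per kb for Cbfb, SD, n = 2). Among the Runx genes, Runx1 made up 65.6% ± 0.906 (SD, n = 2) of the Runx sum in Young HSCs, 48.4% ± 0.392 in Young MPP1 and 36.4% ± 1.04 in Young MPP4. Runx3 took 7.36% ± 0.711 in Young and 13.5% ± 2.39 in Aged HSCs, and 35.3% ± 0.556 in Young and 43.2% ± 1.33 in Aged MPP2. Its share was largest in MEPs, at 55.9% ± 8.87 in Young and 69.0% ± 0.922 in Aged cells, and Runx2 led in CLPs, at 54.5% ± 0.549 and 61.1% ± 5.10.

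The ratio of Cbfb to the Runx sum, per kilobase, was 2.03 to 2.47 in Young MPPs and 2.77 to 3.31 in Aged ones. The order turned over in GMPs, where the ratio was 3.51 ± 0.0757 in Young and 1.90 ± 0.113 in Aged cells (SD, n = 2), and in MEPs, where it was 2.09 ± 0.275 and 0.425 ± 0.0599. In CLPs it was 1.21 ± 0.00451 and 0.840 ± 0.110. The shares rest on the length assumed: with the longest transcript in place of merged exons, Runx1 led the Runx genes in 13 of 16 groups in place of 9, Runx3 in 1 in place of 5, and Runx2 in the same 2, both of them CLPs. Dividing by the length of a gene leaves its ratio between the ages as it was. Offsets for GC content and gene length in the fit did change age differences, as given for each gene above.

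**Figure D4:**
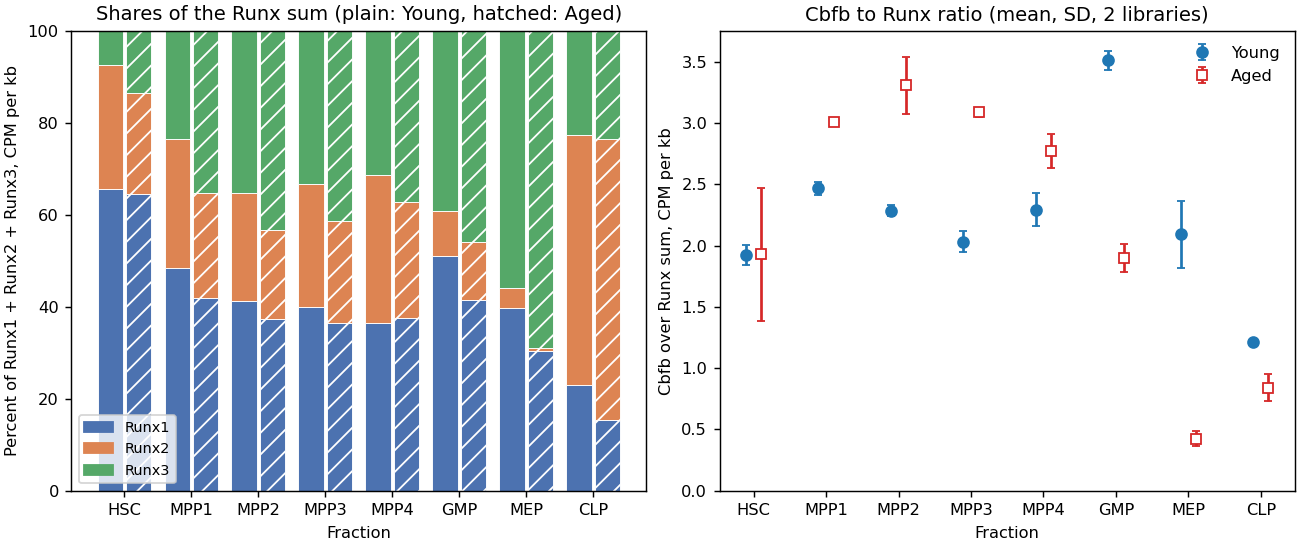
Left, percent of the summed CPM per kb of the Runx genes taken by each, as stacked bars for Young (plain) and Aged (hatched) cells of each fraction. Right, Cbfb over the Runx sum (mean and SD of 2 libraries). Runx1 takes the largest share in HSCs, Runx2 in CLPs and Runx3 in MEPs, and the Cbfb ratio is lower in Aged than in Young GMPs, MEPs and CLPs.

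Over the 16 group means of log2(CPM + 1), Runx1 correlated with Runx2 (Pearson r = 0.82) and with Cbfb (0.84) and less with Runx3 (0.06), and Runx3 gave 0.37 with each of Runx2 and Cbfb. These describe points that share libraries and totals, and MEPs weigh on them. Over the 9589 genes whose mean CPM reached 10, the pattern most like that of Runx1 was that of Crlf3, a cytokine receptor-like factor (r = 0.99), then Ccdc69 and Trim14 (each 0.98), and the most opposite were Tmem14c, Psmc2 and Mrps11 (each -0.98). For Runx2 they were Ncoa3, a coactivator of nuclear receptors, Ptprc, which encodes the leukocyte antigen CD45, and Nfkbie (each 0.99), opposite to Fam195a (-0.98), Slc19a1 (-0.97) and Spryd4 (-0.96). Neil3, a DNA repair enzyme, came closest to Runx3 (0.94), with Gnptab (0.93) and 4930427A07Rik (0.92), opposite to Mtfr1l (-0.90), Rps9 (-0.90) and Rpl13 (-0.88). Trim35, Usp28 (each 0.99) and Appl1 (0.97) came closest to Cbfb, opposite to Htatip2 (-0.97) and Slc35f6 (-0.96).

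Of 16 factors that bind with Runx1 in stem and progenitor cells, 0 were higher and 10 lower in the average over MPP1 to MPP4. Of all genes, 18.9% were higher and 17.7% lower there. The median of the 16 was -0.25 on the log2 scale against -0.04 for all genes. Within fractions, 1 of 16 was lower in HSCs and MPP1, 3 in MPP2 and MPP4, and 4 in MPP3, and 0 were higher in any of these by edgeR. DESeq2 also called 0 higher in these fractions and in the average, and at an unadjusted p under 0.05 edgeR gave 1 higher in MPP1 and 0 elsewhere. Of all tested genes, the percent called higher and lower was 3.74% and 1.66% for HSCs, 4.71% and 2.09% for MPP1, 4.49% and 3.31% for MPP2, 8.14% and 5.79% for MPP3, 10.3% and 6.27% for MPP4, 9.93% and 8.97% for GMPs, 9.08% and 11.7% for MEPs, and 5.71% and 4.73% for CLPs. Lmo2, a bridging protein of the stem cell factor complex, went from 1212 to 929 CPM in MPP1 and from 1119 to 821 CPM in MPP4. Gfi1b, a repressor in erythroid and megakaryocyte cells, went from 61.6 to 29.6 CPM in MPP3 and from 26.8 to 12.0 CPM in MPP4, and Gata1, the erythroid master factor, from 9.54 to 2.99 CPM in MPP3. Myb, needed for adult blood formation, was the factor called in HSCs (353 to 262 CPM).

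In GMPs 3 were higher and 3 lower: Erg, an ETS factor of stem cells, rose from 7.42 to 18.2 CPM and Lyl1 from 4.07 to 11.1 CPM, while Gfi1b fell from 5.22 to 1.43 CPM. In MEPs 1 was higher and 6 were lower, led by the ETS factors Ets1 (28.5 to 2.94 CPM), Fli1 (42.8 to 6.94 CPM) and Erg (4.42 to 0.387 CPM), in the same libraries as the marker sums above. In CLPs Lmo2 was higher (116 to 179 CPM) and Gata2, a factor of stem and mast cells, lower (50.4 to 2.40 CPM), beside the loss of basophil and mast cell markers, a list that also holds Gata2.

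**Figure D5:**
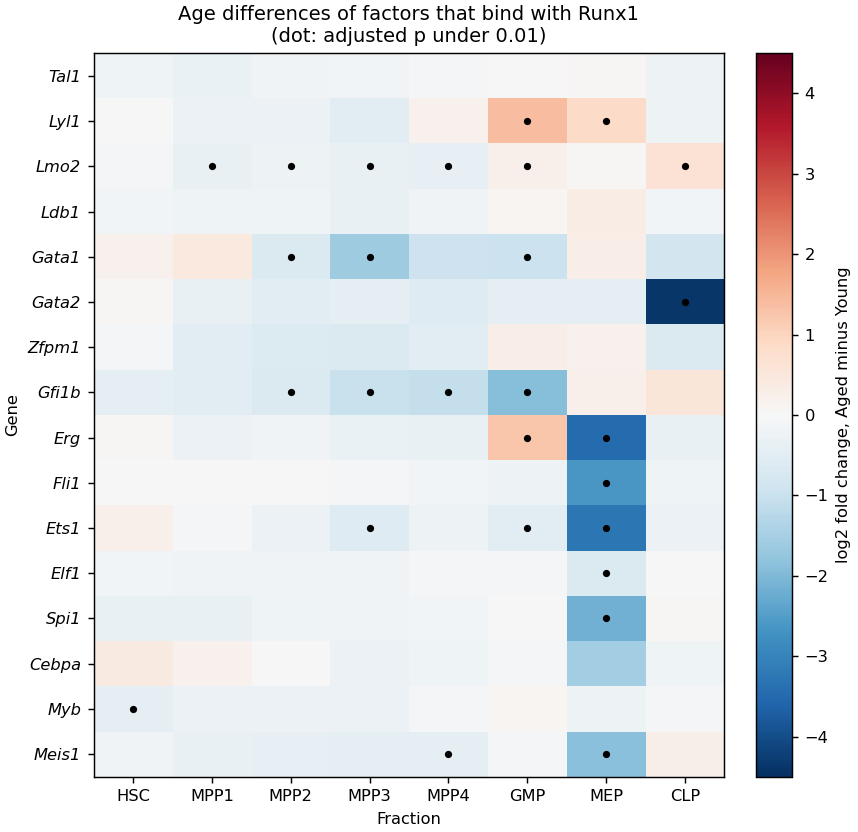
log2 fold change of Aged over Young (color) of 16 factors that bind with Runx1, by fraction, with a dot where the edgeR adjusted p was under 0.01. Calls in MPPs are all lower, Erg and Lyl1 are higher in GMPs, and Erg, Ets1 and Fli1 are lower in MEPs.

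The 31 cofactors and modifiers of Runx proteins other than Cbfb were called most often in GMPs among single fractions. There 9 were higher and 2 lower (9.93% and 8.97% of all tested genes). Their median was 0.23 against 0 for all genes, or 0.44 over the 28 that lay above 3 counts in either age. The corepressors Tle3 (22.4 to 43.9 CPM) and Ncor1 (115 to 209.9 CPM) and the TGF-beta effector Smad3 (12.5 to 24.7 CPM) led. In the average over MPP1 to MPP4, 6 were higher and 13 lower (18.9% and 17.7% of all tested genes), with a median of -0.21 on the log2 scale against -0.04 for all genes. By single fraction the counts were 3 higher and 1 lower for HSCs, 2 and 1 for both MPP1 and MPP2, 2 and 3 for MPP3, and 3 and 2 for MPP4. Wwtr1, the coactivator TAZ that binds Runx2, was higher in HSCs (9.41 to 55.3 CPM), MPP1 (2.46 to 27.4 CPM), MPP2 (0.503 to 9.26 CPM) and MPP3 (1.07 to 5.68 CPM). Cdk6, a cell cycle kinase that binds Runx1, was higher in HSCs (21.0 to 33.0 CPM), MPP1 (52.1 to 101 CPM) and MPP4 (78.7 to 154 CPM). Cbfa2t3, a corepressor of the ETO family, was lower in MPP1 to MPP4, for example from 180.0 to 89.4 CPM in MPP3.

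In MEPs 4 cofactors were higher and 2 lower, among them Ncor1 (118 to 179.9 CPM) and the cyclin Ccnd3 (671 to 436 CPM), and in CLPs 0 were higher by edgeR (2 at an unadjusted p under 0.05, and 0 by DESeq2) and 2 lower, Ccnd3 (1744 to 1188 CPM) and Smarca4 (605 to 473 CPM).

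Of 40 genes known as Runx targets, 35 were tested, and they were called most often in MEPs, where 0 were higher and 17 lower by edgeR (1 was higher at an unadjusted p under 0.05, and 1 by DESeq2). Of all tested genes, 9.08% were higher and 11.7% lower in MEPs, which also had the largest share of all genes called (20.8%). The median of the targets there was -1.82 on the log2 scale against 0 for all genes. Genes at 0 were counted at the bound that 3 counts over a group allow, and 31 of the 35 lay above that floor. The largest differences were in lymphoid and bone genes. Cd79a, part of the B cell receptor, went from 53.1 CPM to 0 (at least 413-fold lower), Ebf1, a B cell factor, from 12.3 CPM to 0 (at least 95.6-fold lower), and Spp1, which encodes osteopontin, from 1.09 CPM to 0 (at least 8.48-fold lower). Cd79a and Ebf1 are also in the list of B cell markers given above, as is Pax5. Cd4, Cd8a, Eomes, Il2rb, Prf1, Ibsp, Bglap, Pf4 and Itga2b are in other marker lists. Il7r, Cd34 and Fcgr3 are sort antigen genes, and Spi1 and Cebpa are in the list of factors that bind with Runx1. In any fraction, the target counts and those lists are therefore not separate observations.

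In the average over MPP1 to MPP4, 3 of the 35 targets were higher and 12 lower (18.9% and 17.7% of all tested genes). For single fractions, the shares of all genes are those given above with the 16 factors. In HSCs 3 targets were higher and 1 lower: Csf3r, the receptor of G-CSF, rose from 64.2 to 139.6 CPM, Itga2b from 66.5 to 125 CPM, and Gfi1 fell from 31.5 to 16.1 CPM. In MPP1 1 was higher and 1 lower, and in MPP2 0 were higher by edgeR (2 at an unadjusted p under 0.05, and 1 by DESeq2) and 3 lower, with Pf4, a platelet protein, going from 35.4 to 9.49 CPM and the cell cycle inhibitor Cdkn1a from 37.7 to 19.0 CPM. In MPP3 0 were higher by edgeR (3 at an unadjusted p under 0.05, and 0 by DESeq2) and 12 lower, with the bone gene Ibsp going from 4.08 CPM to 0 (at least 37.9-fold lower), and in MPP4 2 were higher and 6 lower, among them the neutrophil protease Ctsg, higher from 11.7 to 63.7 CPM. In GMPs 1 was higher, Csf3r (198 to 289 CPM), and 2 were lower, Cd4 and Cd79a, both at 0 in Aged libraries. In CLPs 3 were higher and 9 lower, with Elane, a neutrophil protease, going from 152 to 2.89 CPM.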

How the data were processed

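RNA was sequenced as single reads from libraries made with the SMARTer Ultra Low Input kit, without molecular identifiers and with use of strand not stated. Per the labels, the submitters' processing notes name TopHat2 2.0.13, Bowtie2 2.1.0, StringTie and DESeq2 and the build mm10. The authors deposited raw counts per gene for all 32 libraries, which were used here. A second deposited table of normalized values, and 8 tables of the authors' own comparisons (fold changes and p-values), were not used.

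Genes were filtered with edgeR's filterByExpr and fitted in 1 model of 16 groups with TMM scaling and edgeR's quasi-likelihood test (edgeR 4.0.16, limma 3.58.1, R 4.3.3), with Benjamini-Hochberg adjustment over 14154 genes and a threshold of 0.01. Contrasts were age within each fraction, the mean of age over MPP1 to MPP4, its difference from the other fractions, and the steps between fractions. Totals of 11237384 to 17723245 counts put the floor of 3 counts at 0.169 to 0.267 CPM per library. Intervals on counts cover counting error only. Alternatives were DESeq2 1.42.0, its size factors, no filter, offsets for gene length and GC content, fits of the compared libraries alone, replicate blocks and leaving out each library. Scripts were tested on simulated data. Genes were named as the 3 list genes of each list and fraction with the largest change past the threshold, and for similar patterns the 3 highest and 3 lowest correlations, and some genes that this rule or the lists select are not reported here. The members and lists were chosen with earlier results of these data known.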

Additional observations from a re-analysis of the deposited data

Results flagged for a closer look

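In 7 contrasts the age difference of a member in a fraction differed from its average over MPP1 to MPP4, in edgeR's quasi-likelihood test of the difference itself. Runx3 differed by 0.78 in HSCs on the log2 scale. Runx2 differed by 1.23 in GMPs, by 1.03 in CLPs and by -2.09 in MEPs. Cbfb differed by -0.77 in GMPs, by -2.28 in MEPs and by -0.40 in CLPs. Groups of 2 libraries are too small for a test of single libraries that stand apart.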

How the results depend on the processing

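Of 52 age, average and difference results of the 4 members (log2), 24 passed. Of these, 10 passed under every alternative, 1 was lost only with a library left out and 13 under at least 1 alternative with all libraries. Of the 24, 0 reversed, but some results that did not pass changed sign. Over all alternatives, the age difference in GMPs against MPPs ran from 0.02 to 0.39 for Runx1 and from -0.03 to 0.47 for Runx3. The causes of the changes below were not tested. Once GC content and gene length were offset, these no longer passed: Runx2 in MPP1 (-0.40), Runx1 in MPP2 (-0.34), Runx1 in MPP3 (-0.20), Runx2 in MPP3 (-0.25), Runx2 in MPP4 (-0.32), Runx2 in GMP (0.40) and Runx3 in GMP (0.26). These newly passed: Runx3 in MPP1 (0.50), Cbfb in MPP3 (0.37) and Runx3 over MPP1 to MPP4 (0.29). The direction turned for Runx1 from MPP3 to GMP in Young cells (0.47), Runx3 from MPP3 to GMP in Young cells (0.34), Runx3 from MPP2 to MEP in Aged cells (0.24), Runx1 between CLP and GMP in Young cells (0.40), Runx2 between HSC and GMP in Aged cells (0.15) and Runx3 between MPP1 and MEP in Aged cells (0.78). In a fit of the compared libraries alone these no longer passed: Runx3 in HSC (0.87), Runx1 in MPP3 (-0.39), Runx2 in MPP4 (-0.48), Runx2 in GMP (0.70), Runx3 in GMP (0.54), Runx2 in MEP (-2.63), Runx3 in MEP (0.51) and Runx2 in CLP (0.50). There these newly passed: Runx1 in MPP1 (-0.37), Runx3 in MPP1 (0.41), Cbfb in MPP2 (0.19), Cbfb in MPP3 (0.34), Runx1 in GMP against MPPs (0.35) and Runx3 in GMP against MPPs (0.42). With the DESeq2 Wald test these newly passed: Runx1 in MPP1 (-0.38), Runx3 in MPP1 (0.41), Runx3 in CLP (0.40), Runx1 in HSC against MPPs (0.37), Runx1 in GMP against MPPs (0.38), Runx3 in GMP against MPPs (0.44) and Runx3 in MEP against MPPs (0.39). With DESeq2 size factors in edgeR, Runx3 in GMP against MPPs (0.44) newly passed and Cbfb in CLP against MPPs (-0.36) no longer did. Without a filter on low counts Cbfb over MPP1 to MPP4 (0.16) and Cbfb in CLP against MPPs (-0.37) no longer passed. At a threshold of 0.05 these newly passed: Runx1 in MPP1 (-0.38), Runx3 in MPP1 (0.41), Cbfb in MPP3 (0.32), Runx3 in CLP (0.39), Runx1 in GMP against MPPs (0.35), Runx3 in GMP against MPPs (0.42) and Runx3 in MEP against MPPs (0.40). The number of genes called for age was, at 0.05, HSC 1586, MPP1 1846, MPP2 2171, MPP3 3412, MPP4 3665, GMP 4170, MEP 4636 and CLP 2612, with the offsets MPP2 1849 and MPP3 3083, in fits of the compared libraries alone HSC 207, MPP1 2421, MPP2 3336, MPP3 1294, MPP4 1458, GMP 1149, MEP 734 and CLP 128, and with DESeq2 HSC 1354, MPP1 1632 and MPP2 1842. Leaving out 1 library at a time, the lone library left in a group was assumed to vary like the other groups. The lowest and highest values were, where a call changed, Runx3 in HSC against MPPs 0.48 to 0.96, Cbfb in HSC against MPPs -0.47 to -0.0079, Runx2 in MPP1 -0.47 to -0.39, Runx1 in MEP against MPPs -0.13 to 0.41, Cbfb in CLP against MPPs -0.50 to -0.35, Runx1 in MPP2 -0.53 to -0.41, Runx1 in MPP3 -0.45 to -0.32, Runx2 in MPP3 -0.57 to -0.45, Runx2 in MPP4 -0.56 to -0.38, Runx3 in GMP 0.48 to 0.60, Runx1 in MEP -0.45 to 0.076, Runx3 in MEP 0.35 to 0.63 and Runx2 in CLP 0.34 to 0.63, and the number of genes called was HSC 333 to 841, MPP1 343 to 490, MPP2 318 to 473, MPP3 1093 to 1373, MPP4 1257 to 1782, GMP 1299 to 2059, MEP 1683 to 2615 and CLP 574 to 1496.

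Same-numbered libraries deviated together with correlations of -0.12 to 0.22 (median 0.00713) over pairs of groups. These values cannot tell whether libraries of the same number shared a pool of marrow or a batch. The replicate block over all libraries changed 0 calls of the members for age, and the replicate block within each fraction ended Runx2 in MPP1 (-0.46). The replicate block with the offsets ended Runx2 in MPP1 (-0.40), Runx1 in MPP2 (-0.34), Runx1 in MPP3 (-0.20), Runx2 in MPP3 (-0.25), Runx2 in MPP4 (-0.32), Runx2 in GMP (0.40) and Runx3 in GMP (0.26), added Runx3 in MPP1 (0.50), Cbfb in MPP3 (0.37) and Runx3 over MPP1 to MPP4 (0.29), turned Runx1 from MPP3 to GMP in Young cells (0.47), Runx3 from MPP3 to GMP in Young cells (0.33), Runx3 from MPP2 to MEP in Aged cells (0.24), Runx1 between CLP and GMP in Young cells (0.40), Runx2 between HSC and GMP in Aged cells (0.15) and Runx3 between MPP1 and MEP in Aged cells (0.78), and gave these numbers of genes called for age: MPP2 1866 and MPP3 3089. A coding-length alternative was not run, since no protein table was given.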
